A study of Canis lupus familiaris with 12 samples.

Results

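The 327 repeat rows described here are those with the fewest reads in control canine myoblasts, out of 654 repeat rows that could be followed in all 12 libraries of the series. Polyadenylated RNA was sequenced from an immortalized line of canine myoblasts, which are muscle precursor cells, and reads were counted over annotated repeats as well as over genes. Lentiviral transduction with pCW57.1 gave the cells an insert that doxycycline switches on, namely luciferase (the negative control), human DUX4, canine DUXC or the isoform DUXC-ALT, with 3 libraries per insert. By the protocol all samples received 1 ug/ml doxycycline for 24 h, but the luciferase samples are tagged as untreated, so a difference from luciferase may also be a difference between doxycycline and its absence. Differences among DUX4, DUXC and DUXC-ALT do not carry that doubt. Nothing in the labels says that the 3 libraries of a group are independent cultures, so the p-values reflect spread among libraries that may be purely technical.

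DUX4 is a transcription factor with a pair of homeodomains that is normally active in the early embryo and in the germ line. Its expression in skeletal muscle causes facioscapulohumeral dystrophy, and in human muscle cells it is known to bind and switch on long terminal repeats of endogenous retroviruses. DUXC is a related double homeobox gene found in dog and other mammals. The series compares what DUXC and DUXC-ALT switch on in muscle cells with what DUX4 does. Repeats are sequences present in many copies, most of them remnants of transposable elements, and most are transcribed little in differentiated or committed cells.

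Members were chosen by their luciferase counts alone. Rows with at least 7 luciferase reads over the 3 libraries occur in the same order in the DUX4, DUXC and DUXC-ALT repeat tables, which hold 726, 717 and 683 rows, and were joined by that order. They were then ranked by summed luciferase reads and the 327 lowest were taken. The members held 7 to 229 luciferase reads, with a median of 52, and 103 of them held fewer than 30. The 327 other rows held 229 to 879700 luciferase reads, with a median of 829. In the tables as used here the rows carry no names. Each is called by its row number in the DUX4 repeat table, and no family name, repeat class, position or sequence can be given. Whether each row is a single family cannot be checked either. A further limit is that 14 members share all 3 luciferase counts with another joined row, so their match between tables rests on order. Gene rows are unnamed as well, so the labelled cell type could not be checked against myoblast markers such as DES or MYOD1.

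Just inside the limit, repeat row 185 held 228 luciferase reads and repeat row 503 held 229. Just outside, repeat row 522 held the same 229 reads, the tie being settled by table order, and repeat row 593 held 231. Levels are given as CPM, in which counts are divided by the gene-table total of the same library. Repeat row 503 stood at 4.05 ± 0.250 CPM with luciferase, 10.1 ± 0.654 under DUX4, 16.6 ± 1.31 under DUXC and 3.13 ± 0.366 under DUXC-ALT (mean ± SD, n = 3 libraries, as for every CPM with an error). Repeat row 522 stood at 4.05 ± 0.119, 4.86 ± 0.748, 4.83 ± 0.675 and 4.57 ± 0.441 CPM in the same order. Repeat row 185, inside, stood at 4.01 ± 0.441, 5.12 ± 0.468, 4.46 ± 0.174 and 3.86 ± 0.869 CPM. Repeat row 593, outside, stood at 4.08 ± 0.803, 58.7 ± 2.66, 46.1 ± 1.69 and 3.74 ± 0.396 CPM. Neighbours thus behaved differently on either side of the limit, and the limit divides a continuous ranking.

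Gene counts ranged from 15556477 to 20591033 per library and repeat counts from 524876 to 1226444. At this depth the median member had 17.3 counts per library with luciferase, 45.7 under DUX4, 37.0 under DUXC and 16.7 under DUXC-ALT. Few members went undetected in a library, at most 1 in a luciferase library, 2 in a DUX4 or DUXC library and 6 in a DUXC-ALT library. The median coefficient of variation within a group of 3 libraries was 18.7% with luciferase, 13.3% under DUX4, 14.2% under DUXC and 22.0% under DUXC-ALT. The median counting error, from the inverse square root of a member's mean count, was 24.0%, 14.9%, 16.5% and 24.8%. A median of coefficients from 3 libraries tends to fall below the true spread, so these do not show spread below counting error. For the more abundant 327 rows the coefficient was 6.21%, 4.16%, 6.38% and 5.19%, and the counting error 6.02%, 4.38%, 4.76% and 6.04%. In RNA from bulk cultures, fewer cells expressing a repeat and less RNA per cell cannot be told apart.

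Together the scarce repeats stood far higher with DUX4 and DUXC than with luciferase, and about level with luciferase with DUXC-ALT. Their summed level was 426.6, 406.9 and 419.1 CPM in the luciferase libraries, and 412.5, 419.8 and 407.6 CPM in the DUXC-ALT libraries. It was 1502, 1450 and 1495 CPM in the DUX4 libraries and 967.1, 1017 and 943.1 CPM in the DUXC libraries. The DUX4 libraries lay above the DUXC libraries and both lay above the other 6, whose ranges overlapped. Group means were 417.5 ± 9.96 CPM with luciferase, 1483 ± 28.1 under DUX4, 975.9 ± 37.9 under DUXC and 413.3 ± 6.12 under DUXC-ALT, which is 3.55, 2.34 and 0.990 times luciferase. No test is given for these sums, because luciferase counts chose the members. The median member followed the same order, at 0.920 ± 0.00873, 2.76 ± 0.0805, 2.06 ± 0.0867 and 0.894 ± 0.0347 CPM. As a share of all repeat counts the members made up 1.20% ± 0.0325 with luciferase, 2.14% ± 0.0874 under DUX4, 1.80% ± 0.107 under DUXC and 1.31% ± 0.132 under DUXC-ALT. Repeat counts as a whole were also higher with DUX4 and DUXC, so part of the members' difference is shared by other repeats. Per 100 gene counts they were 3.46 to 3.54 with luciferase, 6.68 to 7.33 under DUX4, 4.91 to 5.80 under DUXC and 2.81 to 3.52 under DUXC-ALT.

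**Figure D1:**
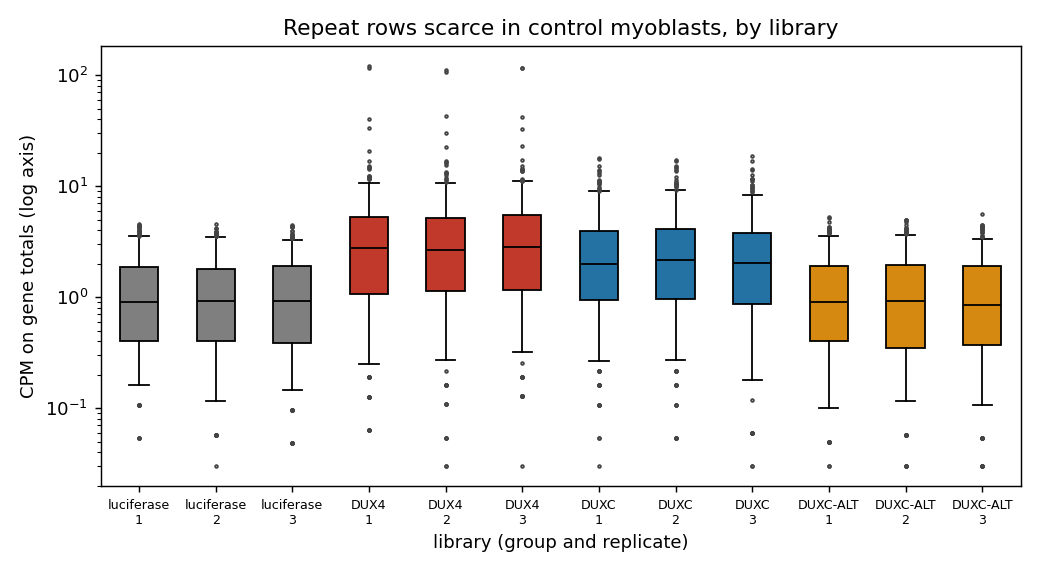
Level of the 327 members in each of the 12 libraries, in CPM on gene totals on a log axis. Boxes span the quartiles with the median as a line, whiskers reach the 5th and 95th percentiles, dots are members beyond them, and counts of 0 are drawn at 0.03 CPM. The 6 boxes of DUX4 and DUXC sit above those of luciferase and DUXC-ALT, and the highest dots belong to the DUX4 libraries.

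A few members held much of the DUX4 sum. Repeat rows 648 and 97 were the most abundant members over the 9 factor libraries and made up 7.73% and 7.71% of the summed level with DUX4. Both together were 15.4% of that sum, against 1.41% with DUXC, 1.08% with luciferase and 1.18% with DUXC-ALT. Without them the mean DUX4 sum was 1254 CPM, still above the sum in every DUXC library. The DUXC sum was spread more evenly, its leading member being repeat row 359 at 17.8 CPM, or 1.82% of the sum.

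Compared with luciferase, as a description with no test, the median member had a log2 ratio of 1.30 under DUX4, 0.99 under DUXC and −0.04 under DUXC-ALT, with 0.05 CPM added to each mean. The same medians over all 654 rows were 1.15, 0.83 and −0.01. With DUX4, 211 of 327 members were more than 2-fold above luciferase with no overlap of the libraries, which is 64.5%, against 59.9% of all rows. With DUXC the count was 158, or 48.3%, against 38.5% of all rows. With DUXC-ALT it was 0 members and 0% of all rows. These values rest on gene totals. On repeat totals the medians were 0.36 (DUX4), 0.41 (DUXC) and 0.10 (DUXC-ALT), so the median was no longer higher for DUX4 than for DUXC, and 82, 81 and 3 members were past 2-fold above luciferase. In the other direction, on gene totals, 1 member was past 2-fold below luciferase with DUX4 (0.153% of all rows), 1 with DUXC (0.153%) and 8 with DUXC-ALT (1.22%). Selection on low luciferase counts can by itself raise these ratios. When rows were ranked on 2 luciferase libraries and measured against the library left out, the median log2 ratio was 1.29 to 1.40 with DUX4, 0.992 to 1.06 with DUXC and −0.0646 to 0.0342 with DUXC-ALT.

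The comparisons between factors used no luciferase library and could be tested. Fold changes are log2 values from edgeR's quasi-likelihood test, and a row is called at a Benjamini-Hochberg adjusted p under 0.05 over all 654 rows. The test gives no standard error. The ± values and all standard errors below are approximate, the absolute fold change divided by the square root of the test's F statistic. DUX4 was compared with DUXC-ALT first. Of the 327 members, 272 were higher with DUX4 and 1 was lower, against 88.1% and 0.917% of all rows. The members' share called higher was 83.2%, below that of the 327 more abundant rows, 93.0%. Past 2-fold, 232 were higher and 1 lower, against 63.8% and 0.153% of all rows. The members' median log2 fold change was 1.52, beside 1.27 over all rows and 1.12 over the more abundant rows. These values rest on scaling by gene counts. Scaled on the repeats themselves, 116 members were higher and 56 lower (65 and 21 past 2-fold), with a median of 0.26. The share of calls that were higher thus went from 99.6% to 67.4%. Over all 654 rows that scaling gave 216 higher and 227 lower (83 and 50 past 2-fold), with a median of −0.0008. It was computed on these same rows, which by itself brings their median near 0.

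Repeat rows 97 and 147 had the largest rises in that comparison. Repeat row 97 had 1916, 1942 and 1804 counts with DUX4 and 22, 16 and 15 with DUXC-ALT. Its luciferase counts were 28, 10 and 15, so the DUXC-ALT libraries overlapped the control while the DUX4 libraries stood apart from all others. Its edgeR fold change was 6.97 ± 0.09 on the log2 scale. Repeat row 147 had 534, 552 and 506 counts with DUX4 and 6, 2 and 7 with DUXC-ALT. The groups did not come near each other, and the log2 fold change was 6.93 ± 0.16. In this comparison edgeR took the spread of at least some rows fully from the estimate shared across rows. Its smallest adjusted p-values fell to 0 at the precision of the software and are not given. The smallest rises named by the rule, in repeat rows 673 and 66, were 0.39 ± 0.15 (edgeR adjusted p = 0.0132) and 0.44 ± 0.20 (edgeR adjusted p = 0.0327). Both lost the call with DESeq2, at log2 fold changes of 0.40 and 0.45, and both turned to the other direction, −0.89 and −0.83, when scaled on the repeats. Repeat row 673 also lost it without DUX4 replicate 3 or DUXC-ALT replicate 1, at 0.30 and 0.26, and repeat row 66 without DUX4 replicate 1 or 2 or DUXC-ALT replicate 3, at 0.45, 0.35 and 0.31. With gene totals alone and in a fit over all 9 factor libraries, repeat row 66 was also not called, at 0.37 in both (edgeR adjusted p = 0.0729 and 0.0733). The member called lower, repeat row 14, had 3 counts over the DUX4 libraries and 13 over the DUXC-ALT libraries, a ratio of 0.260 (exact 95% interval 0.0475 to 0.945, counting error only). Its edgeR adjusted p was 0.0435 and the call was lost with DESeq2 and without any of the 6 libraries other than DUX4 replicate 3, which left 0 members lower.

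**Figure D2:**
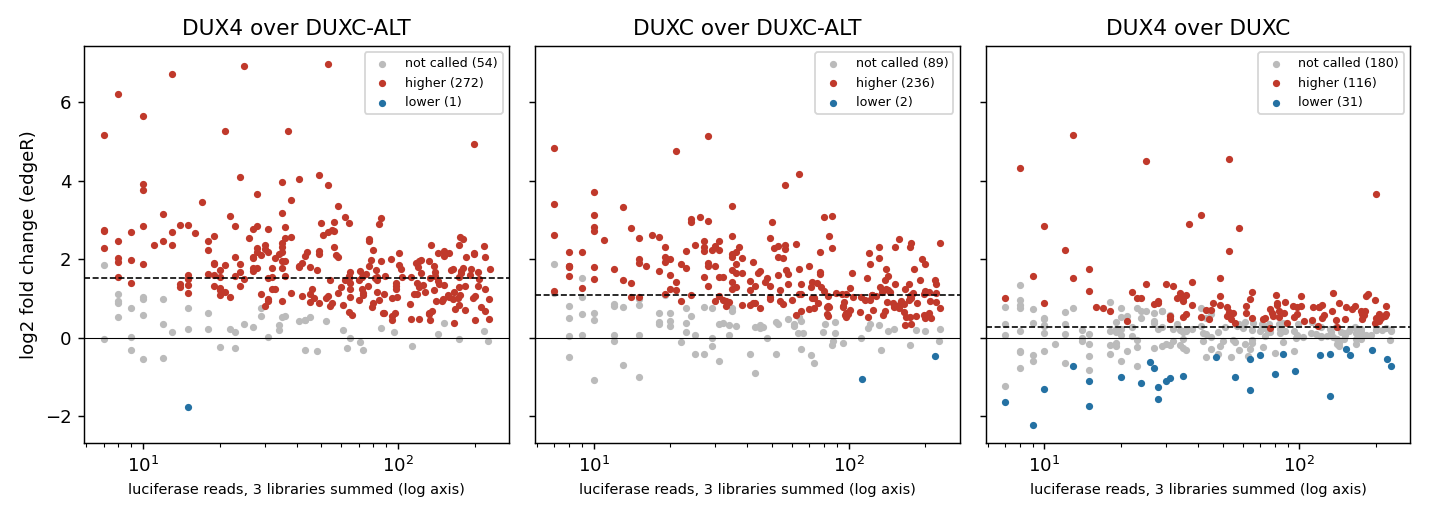
Log2 fold change of each of the 327 members in the 3 comparisons between factors, against its luciferase reads summed over 3 libraries on a log axis. Each point is a member, coloured by its call at an adjusted p under 0.05, and the dashed line is the members' median of 1.52, 1.08 and 0.27. Nearly all calls against DUXC-ALT are higher, while 116 members are higher and 31 lower with DUX4 than with DUXC.

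DUXC was also higher than DUXC-ALT over most members. It was higher in 236 and lower in 2, against 79.5% and 1.99% of all rows. The share called higher was 72.2% of members and 86.9% of the more abundant rows. Past 2-fold, 173 were higher and 1 lower, against 41.4% and 0.153% of all rows. The median log2 fold change was 1.08, beside 0.87 over all rows and 0.72 over the more abundant rows. Scaled on the repeats, 112 were higher and 40 lower (72 and 18 past 2-fold) with a median of 0.22. The share of calls that were higher went from 99.2% to 73.7%. Over all 654 rows that scaling gave 204 higher and 194 lower (86 and 31 past 2-fold), with a median of 0.02.

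Repeat row 504 rose most with DUXC over DUXC-ALT. It had 151, 152 and 113 counts with DUXC, 49, 46 and 37 with DUX4, 2, 4 and 6 with DUXC-ALT and 11, 8 and 9 with luciferase. No groups overlapped, and DUXC-ALT was the lowest of the 4. The log2 fold change over DUXC-ALT was 5.13 ± 0.25 (edgeR adjusted p = 1.23e-30). Repeat row 698 had 112, 162 and 126 counts with DUXC and 4, 7 and 4 with DUXC-ALT, a log2 fold change of 4.77 ± 0.25 (edgeR adjusted p = 5.31e-29). Unlike repeat row 504 it was higher still with DUX4, where it had 153, 178 and 173 counts, by 0.44 ± 0.11 on the log2 scale (edgeR adjusted p = 0.000878). The 2 members lower with DUXC than with DUXC-ALT were repeat rows 3 and 133. Repeat row 3 had 23, 26 and 22 counts with DUXC and 56, 59 and 40 with DUXC-ALT, a log2 fold change of −1.06 ± 0.21 (edgeR adjusted p = 8.23e-06). Repeat row 133 had 72, 71 and 63 counts with DUXC and 104, 86 and 106 with DUXC-ALT, a log2 fold change of −0.46 ± 0.14 (edgeR adjusted p = 0.00234). In both rows the DUXC-ALT libraries lay above every DUXC library.

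DUX4 and DUXC differed in both directions. Of the members, 116 were higher with DUX4 and 31 higher with DUXC, against 51.2% and 7.34% of all rows. The share higher with DUX4 was 35.5% of members and 67.0% of the more abundant rows. Past 2-fold, 36 were higher with DUX4 and 14 with DUXC, against 7.49% and 2.14% of all rows. All 14 rows more than 2-fold higher with DUXC were members, as were 36 of the 49 rows more than 2-fold higher with DUX4. Of those 14, 10 were among the 109 scarcest. The median standard error was 0.19 in members and 0.08 in the more abundant rows, and what this difference in precision adds to these counts was not tested. The median log2 fold change of the members was 0.27, close to 0.30 over all rows. Scaled on the repeats the median was −0.04, with 64 members higher with DUX4 and 66 higher with DUXC (19 and 20 past 2-fold). The share of calls higher with DUX4 went from 78.9% to 49.2%. Over all 654 rows that scaling gave 145 higher with DUX4 and 164 higher with DUXC (23 and 21 past 2-fold), with a median of −0.02.

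The members furthest toward DUX4 were repeat rows 139 and 97. Repeat row 139 had 637, 780 and 651 counts under DUX4, 22, 22 and 18 under DUXC, 7, 6 and 10 under DUXC-ALT and 6, 1 and 6 with luciferase. The DUX4 libraries stood apart by a wide margin, and the DUXC libraries in turn lay above the other 6. DUX4 exceeded DUXC by 5.15 ± 0.12 on the log2 scale (edgeR adjusted p = 1.15e-38). In repeat row 97 the DUXC counts were 98, 98 and 62, and DUX4 exceeded DUXC by 4.56 ± 0.09 on that scale (edgeR adjusted p = 8.43e-41). Repeat row 97 was still higher with DUXC than with DUXC-ALT, by 2.34 ± 0.20 (edgeR adjusted p = 3.42e-17). Repeat row 648 had 1836, 2055 and 1802 counts under DUX4, 168, 141 and 172 under DUXC, 77, 65 and 78 under DUXC-ALT and 66, 71 and 62 with luciferase. Its difference between DUX4 and DUXC was 3.67 ± 0.08 (edgeR adjusted p = 2.85e-39).

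The members furthest toward DUXC were repeat rows 707 and 504. Repeat row 707 had 27, 23 and 17 counts with DUXC, 6, 4 and 3 with DUX4, 7, 4 and 4 with DUXC-ALT and 3, 5 and 1 with luciferase. The DUXC libraries alone stood apart, while the other 9 overlapped. Its log2 fold change, DUX4 over DUXC, was −2.23 ± 0.39 (edgeR adjusted p = 3.00e-06). For repeat row 504, whose DUX4 counts were above both luciferase and DUXC-ALT, it was −1.55 ± 0.14 (edgeR adjusted p = 2.24e-13). Repeat row 359 had 324, 319 and 312 counts with DUXC, 113, 142 and 102 with DUX4, 21, 15 and 19 with DUXC-ALT and 27, 12 and 25 with luciferase. Its log2 fold change, DUX4 over DUXC, was −1.32 ± 0.10 (edgeR adjusted p = 7.85e-17), yet both groups lay above the control.

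**Figure D3:**
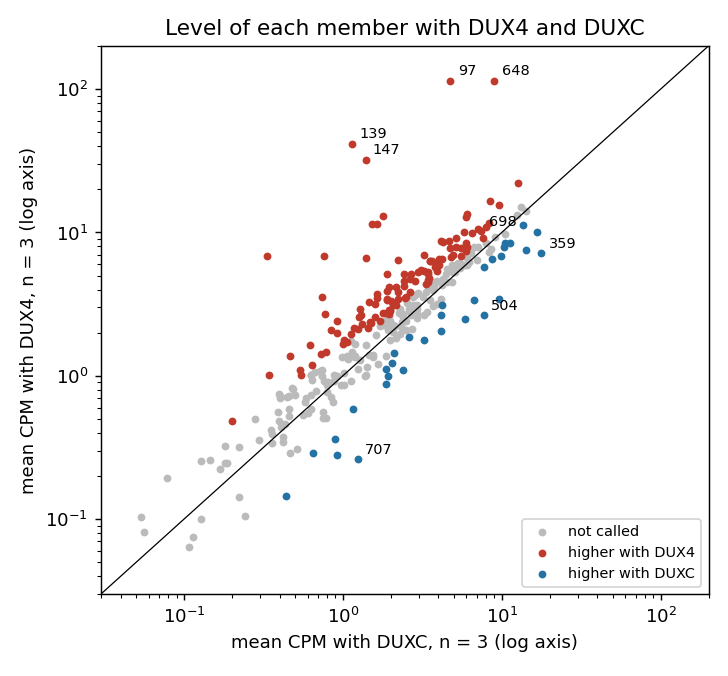
Mean level of each of the 327 members with DUX4 against DUXC, in CPM on log axes, n = 3 libraries each. Points are coloured by the edgeR call, the line marks equal levels, and labels are row numbers. Repeat rows 97, 648, 139 and 147 lie far above the line, row 698 lies just above it, and rows on the DUXC side, such as 504, 359 and 707, lie below it at shorter distances.

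The distances were unequal in the 2 directions. The DUX4 mean was at least 10 times the DUXC mean in 5 members and at least 20 times in 4. The DUXC mean was at least 2 times the DUX4 mean in 13 members and at least 4 times in 1, which is repeat row 707. None of the more abundant rows passed any of these bounds, though their fold changes are also more precise. The 36 members more than 2-fold higher with DUX4 had median levels of 0.606 CPM with luciferase, 4.63 under DUX4, 1.44 under DUXC and 0.480 under DUXC-ALT. The 14 more than 2-fold higher with DUXC had medians of 0.462, 0.989, 2.13 and 0.298 CPM in that order. These medians describe rows selected on their fold change.

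**Figure D4:**
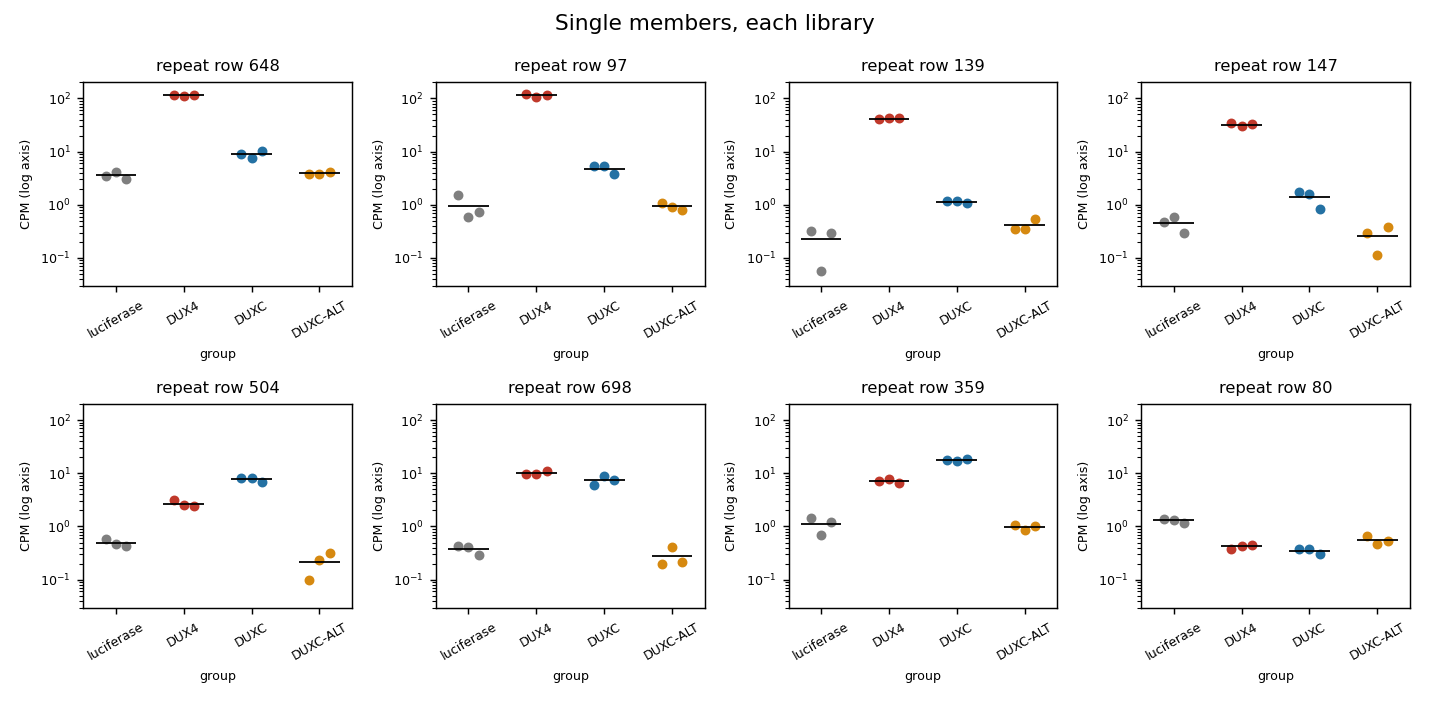
Level of 8 members in each library, in CPM on a log axis with the same range in every panel. Points are libraries and black bars are group means of 3. Repeat rows 97, 648, 139 and 147 are highest with DUX4, rows 504 and 359 with DUXC, row 698 is high with both, and row 80 is highest with luciferase.

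Ordering the 4 group means within each member gave DUX4 the highest mean in 224 members, DUXC in 85, luciferase in 13 and DUXC-ALT in 5. In the 327 more abundant rows these numbers were 275, 37, 11 and 4. The libraries of the highest group lay above all others in 119 of the DUX4 members, 32 of the DUXC members, 1 of the luciferase members and 0 of the DUXC-ALT members, against 221, 17, 4 and 0 of the more abundant rows. The lowest mean was that of DUXC-ALT in 162 members and of luciferase in 139, against 146 and 160 of the more abundant rows. The libraries of the lowest group lay below all others in 20 of these DUXC-ALT members and 16 of the luciferase members, against 31 and 50 of the more abundant rows. Among the 3 factors, 212 members ran from DUX4 through DUXC to DUXC-ALT, 81 ran from DUXC through DUX4 to DUXC-ALT, and in 34 DUXC-ALT was not the lowest. The more abundant rows divided into 266, 35 and 26 in the same way. Many neighbours in these orders overlapped, as the smaller counts without overlap show.

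Very large ratios to luciferase occurred with DUX4. The DUX4 mean was at least 8 times luciferase in 18 members and at least 32 times in 6, repeat rows 29, 97, 139, 147, 648 and 697. Among the more abundant rows the counts were 7 and 0. The 18 members ranged from 1.10 to 114.6 CPM with DUX4, with a median of 7.72, and from 0.332 to 8.99 CPM with DUXC, with a median of 1.64. With DUXC they were 1.08 to 19.8 times luciferase, and with DUXC-ALT 0.454 to 1.95 times. With luciferase they stood at 0.123 to 3.55 CPM, with a median of 0.413, so some of these ratios divide by very few reads. The DUXC mean was at least 8 times luciferase in 10 members and in 5 of the more abundant rows. The 10 members stood at 5.04 to 71.7 times luciferase with DUX4. No member reached 8 times luciferase with DUXC-ALT. Since the rows are unnamed, whether these rows belong to related families cannot be said.

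DUXC-ALT libraries overlapped the luciferase libraries in 282 of 327 members, against 59 with DUX4 and 81 with DUXC. Of the 327 more abundant rows, the libraries overlapped in 234, 15 and 34. The DUXC-ALT mean was within 1.5 times luciferase in 271 members and in 325 of the more abundant rows. Repeat row 87 stood furthest below luciferase with DUXC-ALT among the members with enough counts, at 18, 34 and 23 counts against 80, 72 and 67. It had 82, 93 and 89 counts with DUX4 and 74, 59 and 52 with DUXC, so the DUXC-ALT libraries lay below the other 9, at 0.350 times the luciferase mean. The test between factors gave 2.05 ± 0.19 for DUX4 over DUXC-ALT (edgeR adjusted p = 4.53e-27) and 1.36 ± 0.21 for DUXC over DUXC-ALT (edgeR adjusted p = 1.76e-08). The 8 members past 2-fold below luciferase with DUXC-ALT stood at 0.350 to 0.454 times the control.

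Repeat row 80 was the 1 member past 2-fold below luciferase with DUX4, and the 1 with DUXC. Its counts were 26, 23 and 24 with luciferase, 6, 8 and 7 under DUX4, 7, 7 and 5 under DUXC and 13, 8 and 10 under DUXC-ALT. All 9 factor libraries lay below the 3 luciferase libraries, at 0.325, 0.271 and 0.423 times their mean. The factors were not distinguished from each other in this row, with edgeR adjusted p of 0.483, 0.181 and 0.680. The next lowest with DUX4 by the naming rule, repeat row 703, was above luciferase, at 1.26 times the luciferase mean. The steadiest members over the 3 factors were repeat rows 573 and 712. Repeat row 573 stood at 2.54 ± 0.184 CPM with luciferase, 2.69 ± 0.154 under DUX4, 2.93 ± 0.824 under DUXC and 2.65 ± 0.208 under DUXC-ALT, and repeat row 712 at 3.97 ± 0.579, 3.40 ± 0.542, 3.54 ± 0.443 and 3.79 ± 0.567 CPM.

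Ranking the members again by luciferase reads gave 109 with 7 to 31 reads, 109 with 31 to 82 and 109 with 83 to 229. From the scarcest to the most abundant of these, 78, 93 and 101 were called higher with DUX4 than with DUXC-ALT, and the median log2 fold changes were 1.66, 1.56 and 1.32. For DUXC over DUXC-ALT the counts were 65, 81 and 90 and the medians 1.38, 1.18 and 0.92. Calls thus became more frequent as the medians became smaller. The median standard error for DUX4 over DUXC-ALT was 0.42, 0.24 and 0.16 in the 3 groups and 0.07 in the more abundant rows. For DUX4 over DUXC, 23, 47 and 46 members were higher and 13, 8 and 10 lower, with medians of 0.27, 0.35 and 0.23.

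**Figure D5:**
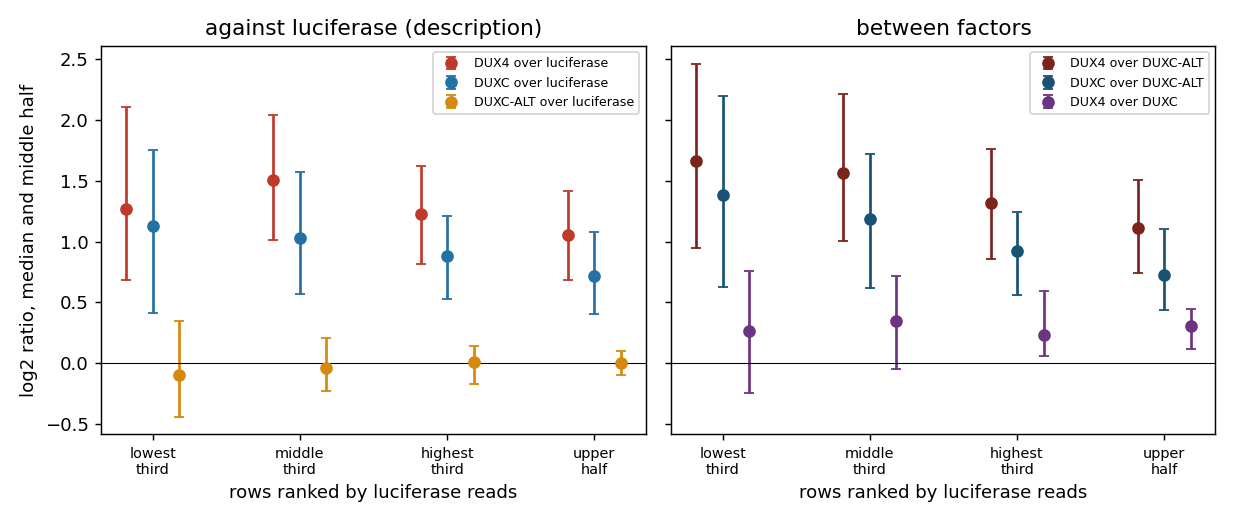
Median log2 ratio of the 109 scarcest, 109 middle and 109 most abundant members and of the 327 rows outside, against luciferase (left, with no test) and between factors (right). Bars span the quartiles over rows and are not errors of the median. The medians of DUX4 and DUXC over DUXC-ALT go from 1.66 and 1.38 in the scarcest members to 1.12 and 0.72 outside, while those of DUX4 over DUXC stay between 0.23 and 0.35 within the members.

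Members without a call are not shown to be level. Of the 54 not called between DUX4 and DUXC-ALT, 16 had an interval of 2 standard errors to each side that lay within 2-fold, and 30 were among the 109 scarcest. Of the 89 not called between DUXC and DUXC-ALT these numbers were 40 and 44. Of the 180 not called between DUX4 and DUXC they were 126 and 73.

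Levels of the 327 members ranked alike in some pairs of groups more than in others, as a description over rows that share libraries and depth and are not independent. Spearman's rho was 0.961 between luciferase and DUXC-ALT and 0.867 between DUX4 and DUXC. It was 0.767 between luciferase and DUX4, 0.822 between luciferase and DUXC, 0.743 between DUX4 and DUXC-ALT and 0.806 between DUXC and DUXC-ALT.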

How the data were processed

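The authors deposited raw read counts per repeat row and per gene row, in tables that each pair 1 factor with the luciferase control. TopHat2 2.1.0, Bowtie2 2.2.6, CASAVA, DESeq2 and the build canFam3 are named in the submitters' processing notes without their roles. How reads were counted, and whether by strand or at several copies, is not given in the sources used here. Near-identical repeats may therefore have had their reads shared or split between rows. Normalized tables were not used.

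Repeat tables were joined by position over rows with at least 7 luciferase reads. The 72, 63 and 29 rows with fewer in the DUX4, DUXC and DUXC-ALT tables were left out. The members, lists and tests were chosen with earlier results of these data known. CPM used gene totals. edgeR 4.0.16 in R 4.3.3 tested each pair of factors over all 654 rows with no expression filter (robust quasi-likelihood, gene totals times TMM factors of 14736 joined gene rows). The procedure was checked on simulated data. Named rows were the 2 largest and 2 smallest changes per comparison among called members with a mean of at least 20 counts in the higher group and no overlap. The same rule without calls was used beside luciferase, with the 2 most abundant and 2 steadiest members added. Other rows named were chosen after their values were seen, among them repeat rows 14, 29, 697 and, between DUX4 and DUXC, 359 and 648. Alternatives were other scalings, filters, DESeq2 1.42.0, a joint fit, a replicate block, libraries left out, and other limits for membership.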

Additional observations from a re-analysis of the deposited data

How the results depend on the processing

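Of 417 recomputed values, 354 were classed as unchanged, 51 as moved, 9 lost the call and 3 reversed. A count was classed as unchanged within 1.5-fold, so some unchanged counts still shifted. With a pseudocount of 0.5, members past 2-fold above luciferase went from 211 to 166 with DUX4 and from 158 to 108 with DUXC. With DESeq2, members higher with DUX4 than with DUXC went from 116 to 91. The scaling mattered most. On the repeats, DUX4 over DUXC-ALT gave 116 higher, 56 lower and a median log2 of 0.26. For DUXC over DUXC-ALT these were 112, 40 and 0.22, and for DUX4 over DUXC 64, 66 and −0.0436. Over all 654 rows the higher and lower counts were 216 and 227, 204 and 194, and 145 and 164, in the same order. Repeat rows 673 and 66 turned to −0.89 and −0.83. On repeat totals, the medians beside luciferase were 0.36 (DUX4), 0.41 (DUXC) and 0.10 (DUXC-ALT), with 82, 81 and 3 members past 2-fold. The median log2 ratio of all genes on totals was −0.113 for DUX4 over DUXC-ALT.

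For DUX4 over DUXC-ALT the median was 1.46 with gene totals alone and 1.45 in a fit over all 9 factor libraries, and the lower call was lost (0 members) with filterByExpr, DESeq2 and the replicate block. To look for pairing, each group's mean log2 CPM was subtracted row by row, over repeat rows with a mean of at least 20 counts. These deviations correlated between −0.169 and 0.107 for same-numbered libraries (9 pairs), and between −0.121 and 0.170 for differently numbered ones. The numbers thus showed no pairing, though counting error in these rows could hide a weak one. The replicate block gave 270 higher and 0 lower (DUX4 over DUXC-ALT), 233 and 2 (DUXC over DUXC-ALT), and 114 and 31 (DUX4 over DUXC). Leaving out single libraries gave 262 to 269 higher, 0 to 1 lower and a median of 1.46 to 1.56 for DUX4 over DUXC-ALT, then 223 to 236 higher for DUXC over DUXC-ALT, 100 to 120 higher for DUX4 over DUXC, and 0 to 3 members past 2-fold above luciferase with DUXC-ALT.

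Taking the 218 lowest rows as members gave 171 higher and a median of 1.61 (DUX4 over DUXC-ALT), 146 higher, 0 lower and 1.24 (DUXC over DUXC-ALT), 70 higher for DUX4 over DUXC, and 1.37 (DUX4) and 1.11 (DUXC) beside luciferase. A pseudocount of 0.5 gave 1.02 and 0.73, and members with a mean of at least 20 counts gave 1.499 and 1.156. Ranking on 2 luciferase libraries and measuring against replicate 2 gave 1.38 with DUX4 and 0.0342 with DUXC-ALT, and against replicate 3 gave 1.40 with DUX4 and 1.06 with DUXC. Members past 2-fold above luciferase with DUXC-ALT were then 9, 9 and 6, against replicates 1, 2 and 3. These counts ask for no overlap with 1 luciferase library, a looser condition than the 3 behind the main count of 0. With TMM factors of genes the summed level was 1512 CPM with DUX4 and 403.9 with DUXC-ALT, and without the 2 most abundant members the DUX4 sum was 1254. The tie at the limit, the count beside luciferase under each setting, the sum without 2 rows and the 20-count bound for comparisons between factors were chosen after seeing the data. Causes were not tested. Low counts limit single members: the median standard error was 0.42 in the 109 scarcest.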
